A study of Homo sapiens with 8 samples.

Results

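The genes described here are the ADAM, ADAMTS and ADAMTSL metalloproteases and their relatives, taken as every gene whose symbol is ADAM, ADAMTS or ADAMTSL followed by digits alone. There were 44 of them, 21 ADAM, 19 ADAMTS and 4 ADAMTSL genes. At the gene level 36 of the 44 were read, in 39 of 22011 transcript clusters (the probe groups that Affymetrix arrays sum to 1 value per gene). At the exon level all 44 were read, in 1179 of 287329 probesets, each of which covers about 1 exon. The arrays' annotation gave the clusters of ADAM2, ADAM8, ADAM10, ADAM17, ADAM21 and ADAMTS20 to more than 1 gene, and these genes were therefore read from probesets alone, as were ADAM7 and ADAMTS7, which had no cluster of their own. ADAM6 and ADAMTSL2, which also carry symbols of this form, were not analysed here.

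RNA came from MDA-MB-231 cells, an established line from a human breast cancer without hormone receptors or HER2, in which a lentivirus stably expressed a short hairpin RNA (shRNA). The control cells expressed a control shRNA and the knockdown cells an shRNA against the integrin α3 subunit, which pairs with β1 to form a laminin receptor. Each group had 2 biological replicates on Human Exon 1.0 ST arrays, and each array was summarised at both levels, so the exon-level values are not further replicates. The labels do not say whether the transduced cells were clones or pools, and the loss of α3 cannot be told apart from other differences between the 2 cell populations.

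ADAM proteins sit in the plasma membrane with a metalloprotease domain and a disintegrin domain outside the cell. Those with an active protease cut the outer part off other membrane proteins, which is called ectodomain shedding, and some disintegrin domains bind integrins. ADAMTS proteins are secreted, carry thrombospondin repeats in place of the membrane anchor and cut matrix proteins such as proteoglycans and procollagens. ADAMTSL proteins resemble ADAMTS proteins but lack the protease domain, and several bind fibrillin microfibrils.

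The targeted gene ITGA3 had PLIER intensities (the array's summary of its probes, on a linear scale) of 3479.8 and 3529 in control arrays, against 619 and 644 in knockdown arrays, a log2 difference of -2.44 ± 0.0727 (SE; adjusted p = 8.7e-05, limma). Over all 13206 transcript clusters bright enough to test, 793 (6%) rose and 2033 (15.4%) fell, and without knockdown array 1 or 2 the total of 2826 calls became 1114 or 832. The median difference of these clusters was -0.06 on the log2 scale. Of 7 markers of mesenchymal basal-like lines, 6 were tested, AXL fell, and the summed level was 25213 to 26172 in control arrays, against 22648 to 22706 in knockdown arrays. Of 7 luminal markers 5 were tested, TFF3 rose and KRT19 fell, and the sum was 4618 to 5023 and 3196 to 3217. KRT19 made up most of that sum (3812 and 4204, then 2357 and 2342), and without it the sum was 806 to 819 and 853 to 861. Of the 7 fibroblast markers, 2 were tested and PDGFRB, which was bright enough to test only through the knockdown arrays, rose from 74.0 and 80.0 to 271 and 262, while the sum of those read was 421 to 437 and 621 to 644. Of the 6 leukocyte markers 3 were tested and CD68 fell, and none of the 4 endothelial markers was bright enough to test. The part of these markers in the results below was not tested, and in RNA of a whole culture fewer cells of a type and less RNA per cell cannot be told apart.

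Many members were weak in these cells: 18 of the 36 genes read at the gene level had a mean intensity under the limit of 108 below which clusters were not tested. The 18 tested genes were 6 ADAM, 9 ADAMTS and 3 ADAMTSL genes. ADAM8, ADAM10 and ADAM17, read from probesets alone, are not among the 6, so the gene-level ADAM counts leave them out. Of the ADAM genes 1 fell (ADAM15) and 0 rose, where 15.4% of all tested clusters fell and 6% rose. Of the ADAMTS genes 2 rose (ADAMTS15 and ADAMTS12) and 0 fell, and of the ADAMTSL genes 0 rose and 0 fell. At an unadjusted p under 0.05 in the same limma fit the counts differed only by 1 lower ADAMTSL gene. Both knockdown arrays lay above both controls for 5 of the 18 genes, against 22.2% of all tested clusters, and below them for 6, against 39.7%. A fit with no limit on intensity tested all 36 and gave 2 rises (2.2% of all clusters rose) and 2 falls (6.86% fell), ADAM15 and ADAMTS3.

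**Figure D1:**
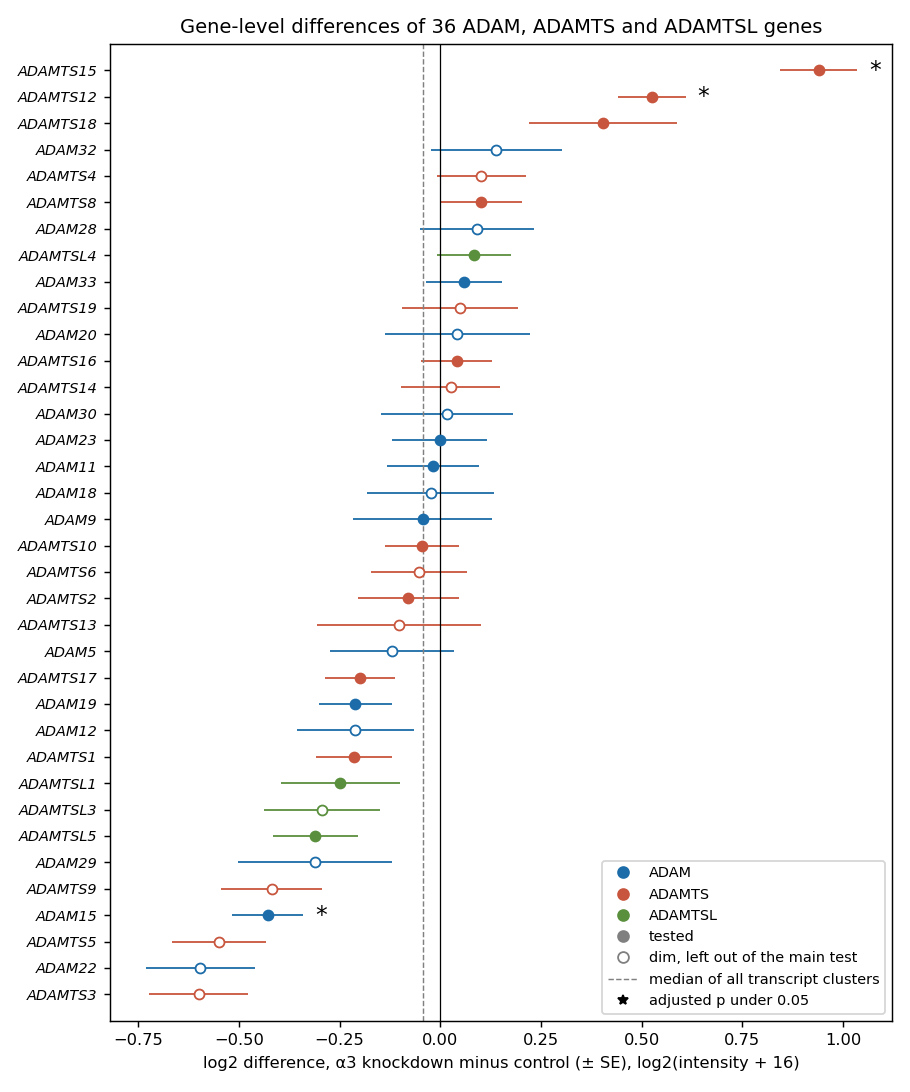
Log2 difference (knockdown minus control) of the 36 genes read at the gene level, 1 point per gene coloured by family, with the SE from the fit that tested all clusters; open points are genes left out of the main test as dim, asterisks mark an adjusted p under 0.05 in the main test, and the dashed line is the median of all clusters. ADAMTS15 at 0.94 and ADAMTS12 at 0.53 lie farthest to the right and ADAMTS3 and ADAM22 at -0.60 farthest to the left.

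Among the sheddases, ADAM10 rose and ADAM15 fell, ADAM8 read lower in nearly all of its probesets, and ADAM17 and ADAM9 overlapped between the groups. ADAM10 is the principal sheddase of Notch receptors, cadherins and the amyloid precursor. Its median over 28 probesets was 1121 and 1363 in control arrays, against 1714 and 1928 in knockdown arrays, 1242 ± 171 and 1821 ± 151 (SD, n = 2), or 1.47-fold. The knockdown arrays were both above the controls. On gene medians over probesets, fitted over 10145 genes of which 4.78% rose and 10.7% fell, ADAM10 rose by 0.55 ± 0.125 (SE; adjusted p = 0.0169, limma). Without control array 1 its adjusted p was 0.0602, and under the other 11 alternative settings it passed.

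ADAM10 also moved as a whole along its length. Of 27 tested probesets all 27 had a positive log2 difference, from 0.18 to 0.79 with a median of 0.42. In 24 of them both knockdown arrays were above both controls, against 19.4% of all tested probesets, and in 0 were they below. These probesets share the same 4 arrays and are no more replicates than the gene itself. The 2 that rose on their own test were probeset 3626635, with 1185 and 995 in control arrays, against 1684 and 1807 in knockdown arrays (log2 difference 0.68 ± 0.143, adjusted p = 0.0346, limma), and probeset 3626595 (0.56 ± 0.125, adjusted p = 0.0417, limma).

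ADAM17, the sheddase of tumour necrosis factor and of most ligands of the epidermal growth factor receptor, overlapped between the groups. Its median over 22 probesets was 924 and 902 in control arrays, against 939 and 919 in knockdown arrays. The difference was 0.03 ± 0.110 on the log2 scale (adjusted p = 0.898, limma). Of its 20 tested probesets 3 lay above the controls, 3 below and 14 overlapped, against 19.4% above and 31.4% below among all tested probesets. ADAM9, a widely expressed ADAM, had a gene-level intensity of 3136 and 2616 in control arrays, against 3236 and 2384 in knockdown arrays. Its array 1 was the higher in both groups, and the groups overlapped (difference -0.04 ± 0.161, adjusted p = 0.879, limma; 0.0472 with arrays centred). Only 2 probesets of ADAM9 were read, which leaves its exons largely unseen.

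ADAM15, whose disintegrin domain carries an integrin-binding RGD motif, was the only ADAM gene that passed the gene-level test. Its intensity was 1050.0 and 941 in control arrays, against 760.4 and 710.3 in knockdown arrays, 996 ± 76.9 against 735 ± 35.5 (SD, n = 2), so the controls were 1.35-fold higher. It fell by 0.43 ± 0.0901 on the log2 scale (SE; adjusted p = 0.0225, limma). The call was lost when arrays were centred on their medians (adjusted p = 0.0574) and without control array 1 (0.0547), knockdown array 1 (0.0717) or knockdown array 2 (0.143). Of its 29 tested probesets 28 had a negative difference and 23 lay below both controls, against 31.4% of all probesets. One of the 23 passed the exon-level intensity limit of 99.4 only through the control arrays. Of the 28 that passed it in both groups, 27 had a negative difference and 22 lay below both controls. Its gene median over probesets, at -0.39, did not pass (adjusted p = 0.0902, limma).

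ADAM8 is best known from leukocytes and from invasive tumour cells, where it sheds adhesion molecules. Its median over 26 probesets was 653 in both controls and 517 and 472 in knockdown arrays. The groups were apart, but the difference of -0.38 ± 0.125 did not pass (adjusted p = 0.0641, limma). All 25 tested probesets had a negative difference, with a median of -0.54, and 23 of them lay below both controls, against 31.4% of all tested probesets. Probeset 3315060 of ADAM8 fell from 1564 and 1753 to 1049.8 and 942 (-0.73 ± 0.140, adjusted p = 0.0260, limma), as did probeset 3315066 (-0.70 ± 0.165, adjusted p = 0.0497, limma).

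The remaining ADAM genes with an active protease gave no calls. ADAM19, which processes neuregulin, had 239.6 and 257 in control arrays, against 210.1 and 214 in knockdown arrays (-0.21 ± 0.0995, adjusted p = 0.187, limma). Its knockdown arrays lay below the controls without passing, and of its 27 tested probesets 14 were below the controls and 1 above, against 31.4% and 19.4% of all tested probesets. The 1 above passed the exon-level intensity limit of 99.4 only through the knockdown arrays. ADAM12, which cuts insulin-like growth factor binding proteins, was dim at 58.0 and 48.6 in control arrays, against 41.1 and 46.4 in knockdown arrays, and only 3 of its 30 probesets were bright enough to test. ADAM33 (183 ± 7.30 and 191 ± 5.54, SD, n = 2) overlapped between groups. ADAM28 and ADAM30 were dim and overlapped. ADAM20 and ADAM21, adjacent testis genes of similar sequence whose readings are uncertain for that reason, were dim as well.

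**Figure D2:**
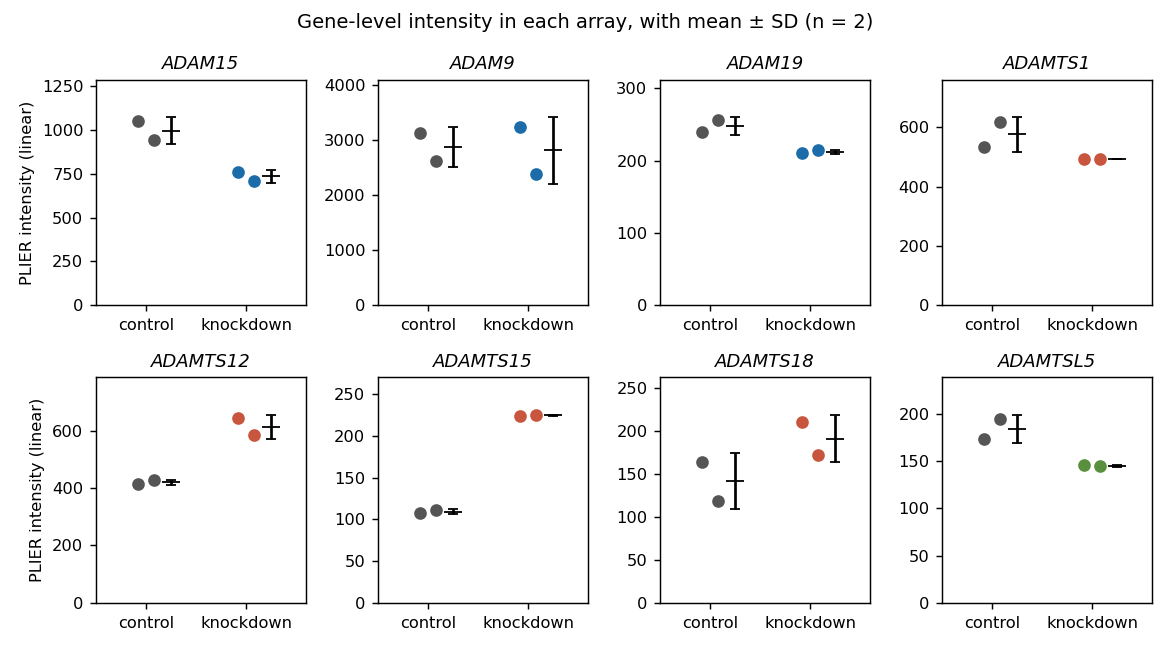
Gene-level PLIER intensity on a linear scale from 0, 1 panel per gene, with each array as a point and the mean ± SD (n = 2) as a bar beside it; controls are grey and knockdown arrays coloured by family. ADAM15 was lower (996 to 735) and ADAMTS12 (421 to 613) and ADAMTS15 (109 to 224) higher in knockdown arrays, while ADAM9 overlapped.

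ADAM genes without an active protease act mostly in the nervous system or in sperm and egg fusion. ADAM22, a receptor of the secreted LGI proteins at synapses, had 98.6 and 118 in control arrays, against 62.7 and 69.3 in knockdown arrays. It was under the intensity limit, and in the fit of all clusters its difference of -0.60 did not pass (adjusted p = 0.0621, limma). At the exon level 9 of its 36 probesets were tested and 7 lay below the controls, against 31.4% of all tested probesets. Among these 7, 2 were tested only through their control arrays. Of the 7, probeset 3011507 fell from 293 and 319 to 161 and 139.8 (-0.95 ± 0.220, adjusted p = 0.0456, limma). ADAM11 (247 and 258, then 228 and 272) and ADAM23 (132 and 139, then 146 and 126) overlapped between groups. The sperm-linked ADAM2, ADAM7, ADAM18, ADAM29 and ADAM32 and the pseudogene ADAM5 were dim, with no array above 17.8 at the gene level or, for ADAM2 and ADAM7, in the median of their probesets.

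Of the secreted proteases, ADAMTS15 showed the largest fold among tested members, from a control mean of 109 near the gene-level intensity limit of 108.3. Its control array 1, at 107.5, was under that limit. ADAMTS15 cuts the proteoglycans versican and aggrecan. Its intensity was 108 and 111 in control arrays, against 224 and 225 in knockdown arrays, 109 ± 2.67 and 224 ± 0.528 (SD, n = 2), or 2.05-fold. It rose by 0.94 ± 0.107 on the log2 scale (SE; adjusted p = 0.00418, limma) and passed under all 11 alternatives in which it was tested. Of its 9 probesets 5 were tested, all 5 lay above the controls, and 3 rose, against 19.4% above and 1.33% rising among all tested probesets. Of the 5, 1 that was not among the rises passed the limit only through the knockdown arrays. The widest was probeset 3356333 with 292 and 288, then 655 and 667 (1.15 ± 0.171, adjusted p = 0.0101, limma). Its gene median over all 9 probesets, 4 of them dim, was smaller at 0.47 and did not pass (adjusted p = 0.0875, limma). ADAMTS8, its neighbour in the genome and a related protease, was at 155 and 168 in control arrays, against 168 and 179.7 in knockdown arrays (0.10 ± 0.112, adjusted p = 0.575, limma).

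ADAMTS12, which cuts cartilage oligomeric matrix protein, had 415 and 427 in control arrays, against 642 and 584 in knockdown arrays. The means were 421 ± 8.43 and 613 ± 41.2 (SD, n = 2), or 1.46-fold, with the groups apart. It rose by 0.53 ± 0.0889 on the log2 scale (SE; adjusted p = 0.0119, limma), and its gene median over 32 probesets rose as much (0.53 ± 0.134, adjusted p = 0.0266, limma). Without knockdown array 1 or 2 the gene-level adjusted p was 0.0895 or 0.0525. The gene median lost its call with no intensity limit (0.0516) and without control array 1 (0.0629) or knockdown array 1 (0.190). All 29 tested probesets had a positive difference, 26 lay above both controls and 3 rose, against 19.4% above and 1.33% rising among all tested probesets. The widest of the 3, probeset 2852671, passed the limit only through the knockdown arrays, at 64.2 and 38.5 in control arrays, against 176 and 149.7 in knockdown arrays (1.43 ± 0.322, adjusted p = 0.0423, limma). ADAMTS7, the closest relative of ADAMTS12 and likewise a protease of cartilage oligomeric matrix protein, was dim, with a median over 39 probesets of 65.0 and 74.6, then 74.0 and 74.4.

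The other proteoglycan-cutting ADAMTS genes gave no calls, and most were dim. ADAMTS1, which cuts versican, had 535 and 617 in control arrays, against 493 in each knockdown array. The knockdown arrays were below the controls, but neither the gene-level difference (-0.21 ± 0.0971, adjusted p = 0.173, limma) nor the gene median over 17 probesets (-0.37, adjusted p = 0.0931, limma) passed. The aggrecanase ADAMTS5, which neighbours ADAMTS1, was dim at 91.1 and 90.7, then 55.9 and 58.2. Its groups were apart with little spread, and in the fit of all clusters its difference of -0.55 had an adjusted p of 0.0520 (limma). The median over its 13 probesets, however, overlapped between groups, at 34.7 and 41.9, then 37.7 and 26.7. With no intensity limit that median differed by -0.18 (adjusted p = 0.662, limma). The other main aggrecanase, ADAMTS4, was dim at 108 and 98.5, then 113 and 110.0. ADAMTS9 was dim at 62.4 and 67.1, then 45.1 and 43.7 (-0.42, adjusted p = 0.116 in the fit of all clusters, limma), and all 55 probesets of its relative ADAMTS20 were dim.

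Procollagen N-propeptidases trim the amino end of fibrillar procollagens. ADAMTS3 had 70.7 and 72.4 in control arrays, against 40.5 and 43.0 in knockdown arrays, and none of its 26 probesets was bright enough to test. In the fit of all clusters it fell by 0.60 on the log2 scale, just past the threshold (adjusted p = 0.0493, limma). Its gene median over probesets, at -0.61, did not pass with no intensity limit (adjusted p = 0.0863, limma). ADAMTS2 (201 and 164, then 171 and 170.0) and the dim ADAMTS14 (68.2 and 70.2, then 66.9 and 74.8) overlapped between groups. ADAMTS13, the protease of von Willebrand factor made mainly in the liver, was dim and overlapped at 70.8 and 54.0, then 68.2 and 46.6.

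Further ADAMTS genes, several of them linked to fibrillin microfibrils, gave no calls. ADAMTS18 had 164 and 118 in control arrays, against 210.4 and 172 in knockdown arrays. The groups were apart by a factor of only 1.04 between the nearest arrays, and its difference of 0.41 ± 0.178 did not pass (adjusted p = 0.162, limma). Of its 29 probesets 3 were bright enough to test, all 3 with a positive difference. The median over all 29 was dim and overlapped between groups, at 19.6 and 21.9, then 21.0 and 19.8. ADAMTS17 had 310.1 and 324, then 284 and 265 (-0.20 ± 0.0950, adjusted p = 0.192, limma). ADAMTS10 and ADAMTS16 overlapped between groups with differences of -0.05 (0.0538 with quantile normalization) and 0.04, and ADAMTS6 and ADAMTS19 were dim.

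The 4 ADAMTSL genes, which have no protease domain, gave no calls. ADAMTSL5, a fibrillin binder, had 174 and 194 in control arrays, against 146 and 144 in knockdown arrays (-0.31 ± 0.114, adjusted p = 0.107, limma). ADAMTSL1 had 115 and 148, then 112 and 104 (-0.25 ± 0.151, adjusted p = 0.294, limma), and a second cluster of the gene differed by the same -0.25. All 17 tested ADAMTSL1 probesets had a negative difference and 7 lay below both controls, against 31.4% of all tested probesets. Both ADAMTSL1 clusters and 2 of the 7 probesets passed the limit only through the control arrays. ADAMTSL4 differed by 0.08 and ADAMTSL3 was dim at 71.7 and 88.7, then 59.8 and 64.7.

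Set side by side, the families' medians were close to that of all clusters except for the 3 ADAMTSL genes. The median gene-level difference was -0.03 for the 6 tested ADAM genes, 0.04 for the 9 ADAMTS genes and -0.25 for the 3 ADAMTSL genes, against -0.06 for all tested clusters. The ADAMTSL median is the value of ADAMTSL1 alone, whose cluster passed the intensity limit only through the control arrays. The gene-level ADAM median leaves out ADAM8, ADAM10 and ADAM17, which were read from probesets alone. With quantile normalization all clusters moved to 0.02, ADAM to 0.03 and ADAMTS to 0.14, and with centring to 0.04, 0.06 and 0.13, so the sign of the ADAM median turned with the scaling. Over single probesets the medians were -0.10 for 183 ADAM, 0.03 for 192 ADAMTS and -0.14 for 53 ADAMTSL probesets, against -0.05 for all 172397. No test of the difference between families was made, since the members share the same 4 arrays and are not replicates.

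**Figure D3:**
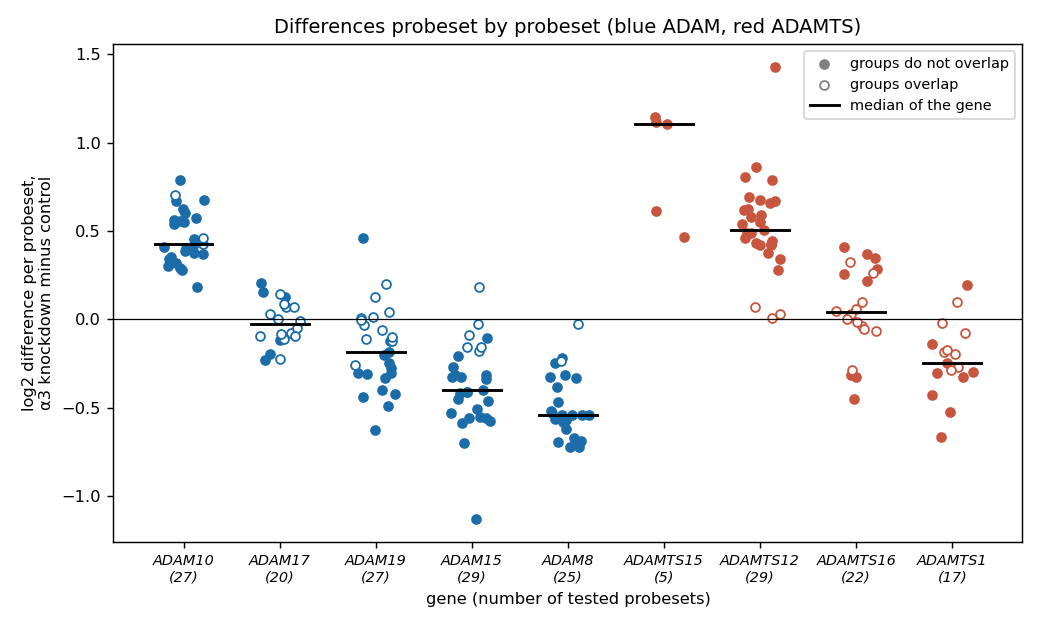
Log2 difference (knockdown minus control) of every tested probeset of 9 genes, 1 point per probeset, filled where both knockdown arrays lie outside the control range, with the gene's median as a black line. All points of ADAM10 and ADAMTS12 are above 0 (medians 0.42 and 0.51) and all points of ADAM8 are below it (median -0.54), while ADAM17 centres at -0.03.

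Of the 428 tested member probesets, 8 rose and 4 fell, where 1.33% of all probesets rose and 3.33% fell. The 8 rises were in ADAM10 (2), ADAMTS12 (3) and ADAMTS15 (3), and the 4 falls in ADAM8 (2), ADAM15 (1) and ADAM22 (1). These calls of single probesets were fragile. The total of 12 became 3 without control array 1, 7 without control array 2, 4 without knockdown array 1 and 6 without knockdown array 2, and it was 0 with no intensity limit, where 163 of 287329 probesets (0.0567%) were called in all.

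Whether single exons moved apart from their genes was asked by setting each probeset against the mean of the others of its gene. Of 421 member probesets 0 passed (limma), where 92 of 155406 (0.0592%) passed in all, and 23 member probesets had an unadjusted p under 0.05. The nearest was probeset 3011493 of ADAM22, with 302 and 285 in control arrays, against 348 and 523 in knockdown arrays, a log2 difference of 1.15 relative to the rest of its gene (adjusted p = 0.241, limma). Without knockdown array 1 it and a probeset of ADAMTS17 passed. Probeset 2859577 of ADAMTS6 had 141 and 176, then 326 and 242 (adjusted p = 0.257, limma). Probeset 2360578 of ADAM15 had the widest drop of any ADAM15 probeset, from 489.6 and 444 to 245 and 169.6 (-1.13 ± 0.225, adjusted p = 0.0288, limma), without standing apart from the rest of ADAM15 at the threshold (adjusted p = 0.451, limma).

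The DNA just upstream of 4 genes with calls in opposite directions at the gene or probeset level is shown for comparison, as 250 bases before the RefSeq transcription start in build GRCh38.p14, read 5′ to 3′ on the gene's strand. ADAM10 is at chr15:58749708-58749957 (minus strand), ADAM8 at chr10:133276869-133277118 (minus), ADAM15 at chr1:155051066-155051315 (plus) and ADAMTS12 at chr5:33891991-33892240 (minus). Capitals mark matches on either strand to TGANTCA, which takes in the AP-1 sites TGACTCA and TGAGTCA, and GGGCGG, the GC box bound by SP1 factors.
ADAM10: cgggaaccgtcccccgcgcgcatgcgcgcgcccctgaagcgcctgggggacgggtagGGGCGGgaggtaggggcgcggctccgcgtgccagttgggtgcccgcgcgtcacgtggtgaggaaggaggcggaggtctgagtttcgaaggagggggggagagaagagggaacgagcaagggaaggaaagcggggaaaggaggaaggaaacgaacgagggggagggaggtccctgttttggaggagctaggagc
ADAM8: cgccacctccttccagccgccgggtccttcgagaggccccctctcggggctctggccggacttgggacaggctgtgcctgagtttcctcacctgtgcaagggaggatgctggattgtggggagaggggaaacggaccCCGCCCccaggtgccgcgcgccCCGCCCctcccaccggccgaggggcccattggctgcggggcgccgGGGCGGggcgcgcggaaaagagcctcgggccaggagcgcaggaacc
ADAM15: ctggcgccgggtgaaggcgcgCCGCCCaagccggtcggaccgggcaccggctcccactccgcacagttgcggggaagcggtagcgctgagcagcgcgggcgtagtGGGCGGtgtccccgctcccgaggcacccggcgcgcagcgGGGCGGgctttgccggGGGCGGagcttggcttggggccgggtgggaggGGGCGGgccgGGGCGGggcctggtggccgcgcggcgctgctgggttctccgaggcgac
ADAMTS12: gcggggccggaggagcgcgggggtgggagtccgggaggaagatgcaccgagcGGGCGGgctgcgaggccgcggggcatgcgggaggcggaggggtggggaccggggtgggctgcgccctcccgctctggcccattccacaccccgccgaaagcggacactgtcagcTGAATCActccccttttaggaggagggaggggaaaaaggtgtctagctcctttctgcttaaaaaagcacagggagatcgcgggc

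The window of ADAMTS12 held the single TGANTCA match among 29 member windows (28 genes), or 3.45%, against 6.57% of 35116 RefSeq windows of the same length. That match reads TGAATCA, which is neither of the AP-1 sites. The other members had no window of this length in the source used. ADAMTS15 is among them and is therefore not shown. GGGCGG matched in 21 of the 29 windows (72.4%), against 42.6% of all windows. Such matches describe letters and were not tested against the expression values.

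Proteins that mature and guide ADAM proteases made up a list of 14 genes, of which 11 were tested, 1 rose and 3 fell, with a median of -0.07 against -0.06 for all tested clusters, of which 6% rose and 15.4% fell. With no intensity limit 0 rose and 2 fell among the 13 genes read, and of the 3 falls of the main test only TSPAN17 passed there. TSPAN17, a tetraspanin that carries ADAM10 to the cell surface, fell from 706 and 666 to 445 and 448 (-0.60 ± 0.0819, adjusted p = 0.00644, limma). FURIN, which removes the inhibitory prodomain of many ADAM and ADAMTS proteases, fell from 186 and 219 to 111 and 135 (-0.65 ± 0.142, adjusted p = 0.0245, limma). PCSK7, a convertase of the same family, fell from 213 and 235 to 153 and 167 (-0.45 ± 0.113, adjusted p = 0.0376, limma). PCSK5, also listed, was left out of the main test as dim. It read 108.7 and 124 in control arrays, against 57.9 and 55.5 in knockdown arrays, a log2 difference of -0.86. TSPAN14, another tetraspanin partner of ADAM10, rose from 831 in each control to 1014 and 995 (0.27 ± 0.0736, adjusted p = 0.0477, limma). TSPAN17 passed under every alternative setting run. FURIN lost its call without control array 2 (adjusted p = 0.0797), knockdown array 1 (0.120) or knockdown array 2 (0.0536), and with no intensity limit (0.0539). PCSK7 and TSPAN14 lost theirs without any 1 of the 4 arrays (0.0517 to 0.208 and 0.0779 to 0.251) and with no limit (0.0667 and 0.0747), PCSK7 also with centring (0.0506) and TSPAN14 with no intensity trend (0.0731). RHBDF1 and RHBDF2, the iRhoms that mature ADAM17, overlapped between groups (-0.07 and -0.01).

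**Figure D4:**
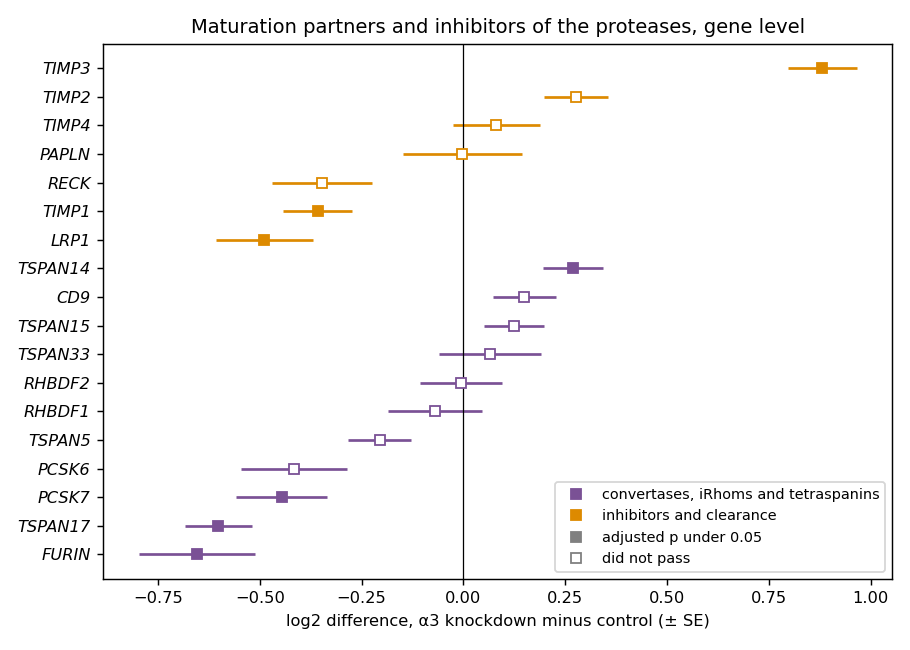
Log2 difference (knockdown minus control) with SE for the tested genes of 2 lists, convertases, iRhoms and tetraspanins (purple) and inhibitors and clearance (orange); filled squares passed at an adjusted p under 0.05. TIMP3 at 0.88 is the highest, and FURIN at -0.65 and TSPAN17 at -0.60 are the lowest.

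Of 8 inhibitor and clearance genes 7 were tested, 1 rose and 2 fell, where 6% of all tested clusters rose and 15.4% fell. With no intensity limit 1 rose and 0 fell. Their median was -0.00294. TIMP3, the tissue inhibitor that acts most broadly on ADAM and ADAMTS proteases, rose from 1941 and 1758 to 3513 and 3321, or 1.85-fold (0.88 ± 0.0844, adjusted p = 0.00265, limma), and passed under every alternative. TIMP1, which also blocks ADAM10, fell from 4499 and 4275 to 3597 and 3247 (-0.36 ± 0.0857, adjusted p = 0.0325, limma). LRP1, an endocytic receptor that clears several ADAMTS proteases, fell from 208 and 241 to 149 and 161 (-0.49 ± 0.119, adjusted p = 0.0345, limma). The TIMP1 call was lost without any 1 array (adjusted p from 0.0602 to 0.189), with no intensity limit (0.0637), with no trend (0.0516) and with centring (0.0933). That of LRP1 was lost with no limit (0.0648) and without control array 2 (0.0972), knockdown array 1 (0.174) or knockdown array 2 (0.125). TIMP2 had 1945 and 2108, then 2495 and 2418, and did not pass (0.28 ± 0.0787, adjusted p = 0.0539, limma), though it did with quantile normalization (0.0283), with centring (0.0175) and with the lower 60% left out (0.0470).

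Known ADAM substrates went both ways. Of 36 listed, 21 were tested, 5 rose and 7 fell, with a median of -0.19 against -0.06 for all tested clusters, of which 6% rose and 15.4% fell. With no intensity limit all 32 genes read were tested, 11 of them dim, and 5 rose and 4 fell. These need not be the same genes as in the main test. Single substrates were followed through the alternative settings only for the 4 tested ones with the smallest p. ICAM1, an adhesion molecule of leukocyte contact, rose from 428 and 417 to 835 and 774 (0.90 ± 0.0841, adjusted p = 0.0024, limma), and the growth factors EREG and HBEGF, the cytokine CSF1 and the receptor TNFRSF1B also rose. TNFRSF1A, the main receptor of tumour necrosis factor, fell from 1358 and 1548 to 683 and 739 (-1.01 ± 0.0951, adjusted p = 0.00251, limma). SDC1, a heparan sulfate proteoglycan of the cell surface, fell from 669 and 686 to 345 and 402 (-0.84 ± 0.100, adjusted p = 0.00465, limma). PRNP, the prion protein, fell from 4348 and 4333 to 3086 and 3051 (-0.50 ± 0.0718, adjusted p = 0.00753, limma), and NECTIN1 (tested only through its control arrays), L1CAM, APP and ALCAM fell too. The epithelial cadherin CDH1, cut by ADAM10, was left out of the test as dim by its mean but read 25.4 and 28.8 in control arrays, against 177 and 168 in knockdown arrays. RNA levels do not show how much of any substrate was shed.

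Substrates and matrix partners of ADAMTS and ADAMTSL proteins were the last list. Of 25 listed, 16 were tested, 4 fell and 1 (COL5A1) rose, where 15.4% of all tested clusters fell and 6% rose. Their median was -0.10, against the same -0.06. With no intensity limit 4 fell and 0 rose. TFPI2, a matrix-bound protease inhibitor, fell from 315 and 352 to 132 and 151 (-1.15 ± 0.117, adjusted p = 0.00316, limma). FBLN1, the fibulin that serves as a cofactor of ADAMTS1, fell from 309 and 328 to 149.7 and 161 (-0.96 ± 0.103, adjusted p = 0.00355, limma). LTBP1, which holds latent TGF-beta in the matrix, fell from 311 and 323 to 158 and 164 (-0.92 ± 0.0981, adjusted p = 0.00355, limma). Fibronectin (FN1) fell from 1886 and 2032 to 1276 and 1257 (-0.62 ± 0.0771, adjusted p = 0.00496, limma). These 4 falls, like the 4 substrates of ADAM proteases given with their values, held under every alternative in which the gene was tested.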

How the data were processed

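The series holds 8 samples from 4 arrays, 2 control and 2 knockdown, each summarised at the gene and the exon level. The authors deposited intensities, linear PLIER summaries made with Affymetrix Expression Console from core probesets, per the labels; the series text names another Affymetrix tool. For the normalization between arrays and the genome build, the sources used here give nothing. The gene-level median was 177 and 186 for control arrays, against 168 and 171 after knockdown. The number of arrays (2 per group) limits the precision of every value; the labels call the replicates biological without saying what was repeated.

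Features were named through GEO's platform annotation with symbols updated through NCBI RefSeq: at the gene level 14432 had 1 symbol, 2408 several and 5171 none, and at the exon level 261273, 9155 and 16901. Only features with 1 symbol were named. A gene with several clusters is given by its brightest one (ADAMTS6, ADAMTSL1 and ADAMTSL4 had 2). Values were transformed as log2(intensity + 16), so a log2 difference understates changes of dim genes. Features in the lower 40% by mean intensity were not tested. The test was limma's (version 3.58.1, R 4.3.3; lmFit and eBayes with an intensity trend, 2 residual degrees of freedom, two-sided) over all features, adjusted by Benjamini-Hochberg, and called at 0.05. Exon usage needed at least 3 tested probesets in a gene. Gene medians are the median log2 value over all probesets of a gene. Scripts were tested on simulated data.

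Every member is named at least once. Values are given per array for called members, for the tested members with the widest differences and for the best-known proteases. They are also given for the 2 probesets with the smallest p for members with a call, and for up to 4 genes with the smallest p per accompanying list. CDH1, PCSK5, PDGFRB and the other substrates and markers named outside that rule were chosen after their values were seen. The members and lists were chosen with earlier results of these data known, and the promoter motifs after seeing the data. Alternatives were other offsets, filters, variance models and scalings, a replicate block, each array left out, and gene medians in place of clusters.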

Additional observations from a re-analysis of the deposited data

How the results depend on the processing

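Most values of the members kept their direction and their side of the threshold: 179 gene-level and 169 gene-median values did, and of the accompanying genes 179 values, while 27 of the latter lost a call and 4 gained one. Of the members' values, 17 at the gene level and 5 gene medians turned sign. With only 2 rises and 1 fall at the gene level and 2 rises by gene medians, most unchanged member values were of genes without a call. The called ADAM15, ADAMTS12 and ADAM10 each lost a call under some settings, as given above. The count of all called clusters, 2826, ranged from 832 to 2417 with 1 array left out. Rises made up 793 of these calls and falls 2033; with quantile normalization the split was 1351 and 1700, and with centring 1494 and 1529, as the median of all clusters moved from -0.06 to 0.02 and 0.04. Called probesets numbered 8022, against 163 with no filter, 1903 with no intensity trend and 3028 to 5385 with 1 array left out. Called exon-usage probesets numbered 92, against 49 with the lower 60% left out, 30 with no trend and 49 to 433 with 1 array left out. Called gene medians numbered 1574, and 1039 to 1340 with 1 array left out. At the gene level 1 ADAMTS gene fell with no filter, 1 rose with the lower 60% left out, and 0 ADAM genes fell with centring; read as gene medians, 1 ADAM gene rose, 0 fell, and 1 ADAMTS gene rose. With 1 array left out, 0 to 1 ADAM genes fell and 1 to 2 ADAMTS genes rose. Member probesets called numbered 12, against 0 with no filter, 2 with no trend and 3 to 7 with 1 array left out, and members called by gene medians 2, against 1 with no filter and 0 to 2 with 1 array left out. Small gene-level differences that did not pass turned sign: with quantile normalization ADAM23 (0.0791), ADAMTS2 (0.0122), ADAM11 (0.0756) and ADAMTS10 (0.0538), and with centring ADAM23 (0.0894), ADAMTS2 (0.0114), ADAM9 (0.0472), ADAM11 (0.0727), ADAMTS10 (0.0455) and the gene median of ADAM9 (0.0319). With 1 array left out ADAM23 ranged from -0.0984 to 0.0950, ADAMTS16 from -0.00431 to 0.0856, ADAMTS2 from -0.216 to 0.0565, ADAM9 from -0.263 to 0.175, ADAM11 from -0.138 to 0.101, and the gene medians of ADAM9 from -0.262 to 0.176, of ADAMTS2 from -0.0770 to 0.259 and of ADAM33 from -0.00995 to 0.120. The cause of these changes was not tested.

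The replicate numbers of the titles give only 2 pairs, which do not establish a pairing; the differences between replicates 1 and 2 correlated at r = 0.19 between the groups over clusters and 0.18 over probesets. With the replicate block 29131 probesets, 1473 exon-usage probesets (2 of them in members) and 3127 gene medians were called, with 74 member probesets and 6 member gene medians, and 4102 clusters. At the gene level ADAMTS18 then passed (adjusted p = 0.0250, limma), so that 3 ADAMTS genes rose.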
